A study of Mus musculus with 48 samples.

Results

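Adult mouse epidermis was compared at 2 opposite times of day, ZT12 and ZT0, where Zeitgeber time (ZT) counts hours from lights on. The comparison rested on 8 of the 48 libraries of the series, 4 from adult mice of 18 to 25 weeks killed at ZT12 and 4 from adult mice of the same age killed at ZT0, and on all genes. The other 40 libraries came from adult mice at ZT4, ZT8, ZT16 and ZT20 and from aged mice of 80 to 90 weeks at all 6 times, 4 libraries for each combination of age and time, which makes 12 groups. No group carried a transgene or treatment that the labels name, and neither the strain nor the sex of the mice is given in the sources used here. Each library was total RNA from a suspension of epidermal cells, depleted of ribosomal RNA, so RNAs without a poly(A) tail, such as histone mRNAs and small nucleolar RNAs, were measured too. The labels do not say that the 4 libraries of a group came from separate animals, so p-values measure the spread between these samples, which may be technical.

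The circadian clock is a transcription feedback loop. The activators BMAL1 (gene Arntl) and CLOCK bind E-box sequences and switch on their own repressors, the PER and CRY proteins, together with the REV-ERB receptors that repress Arntl and with output factors such as DBP. In mouse and human epidermis, cell division is known to follow the time of day, with DNA replication and mitosis favoured at different hours, and the keratinocyte clock takes part in that timing.

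Of 18044 genes tested, 741 were higher at ZT12 than at ZT0, 4.11% of those tested, and 1103 were lower, 6.11% (edgeR quasi-likelihood F test, two-sided, Benjamini-Hochberg adjusted p under 0.05). The 4 ZT12 libraries all lay above the 4 ZT0 libraries for 779 genes, 4.32% of those tested, and all below them for 1251 genes, 6.93%. Most differences were small: 142 called genes were higher by at least 1 on the log2 scale and 179 were lower by at least 1. The median log2 difference over all genes was 0.01. Values are given below as CPM, counts scaled to the size of the library, and a log2 fold change is always ZT12 minus ZT0 with its standard error (SE).

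ZT12 replicates 3 and 4 stood apart from the other 6 libraries. On the first principal component of the 3000 most variable genes, which held 56.5% of the variance, the ZT12 replicates 1 to 4 scored 27.8, 6.6, -65.2 and -47.7, and the ZT0 replicates scored 11.9 to 31.0. The mitochondrial ribosomal RNA mt-Rnr2 took 20.0% and 24.9% of the counts in ZT12 replicates 3 and 4, 13.6% and 13.8% in ZT12 replicates 1 and 2, and 12.98% to 16.3% in the ZT0 libraries. With these replicates left out together, 263 genes were higher at ZT12 (1.43% of those tested) and 218 were lower (1.19%), and 339 of the 1844 calls were kept. A fit to the 8 libraries alone, with no other group to share the estimate of spread, called 98 genes higher (0.576%) and 137 lower (0.805%). Counts under both settings are given for most of the gene groups below. Total counts of the 8 libraries ran from 41851586 to 46548246. Reads of the X-linked Xist numbered 85452 to 134396 in the 8 libraries and those of the Y-linked Ddx3y at most 7.

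**Figure D1:**
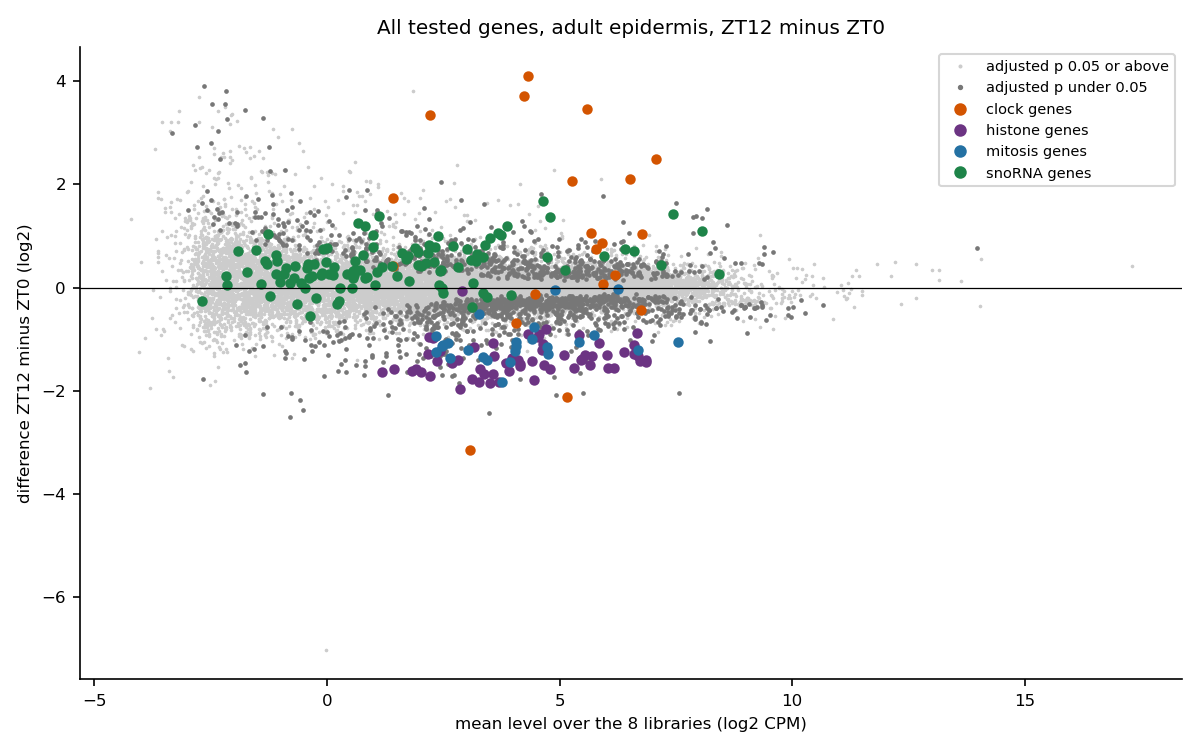
Each point is 1 of the 18044 genes tested, with its mean level over the 8 adult libraries in log2 CPM on the x axis and its log2 difference, ZT12 minus ZT0, on the y axis. Clock genes reach from -3.16 to 4.11, histone genes lie between -1.96 and -0.07, G2 and mitosis genes between -1.83 and -0.03, and small nucleolar RNAs (snoRNA) between -0.55 and 1.68.

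Clock genes were among the largest differences that passed the test. All 3 activators were lower at ZT12, beside 6.11% of all genes called lower. Of the repressors 5 of 6 were higher, as were 2 of the 4 nuclear receptors described and 4 of 6 output factors. Beside these, 4.11% of all genes were called higher. No member was called in the other direction. The counts of clock genes were the same with ZT12 replicates 3 and 4 left out and in each fit without 1 library. In the 8-library fit 3 output factors were called in place of 4.

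Several of the promoters carry the sequences through which clock proteins are known to act. They are shown because the genes behind them moved together, and come from RefSeq on GRCm38.p6, 5′ to 3′, with the match in capitals. Of 300-base windows, from 250 bases before to 50 after the gene start, 8.1% of 27025 genes hold the E-box CACGTG, as do 3 of the 5 repressor genes with a window (Per1, Cry1, Ciart) and 2 of the 5 output factor genes (Tef, Bhlhe41). The D-box bound by DBP, TEF and HLF, searched as TTATGTAA and TTACGTAA on both strands, is in 1.2% of all windows and in that of Per3. It is also in 2 of 16 windows of listed histone genes, H3c2 and H3c11, which were lower at ZT12. A match is a description of the letters only, and Cry1, which holds an E-box, did not differ between the times.
Per1, chr11:69098768-69098803, + strand: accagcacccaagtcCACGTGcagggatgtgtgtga
Ciart, chr3:95882252-95882359, - strand: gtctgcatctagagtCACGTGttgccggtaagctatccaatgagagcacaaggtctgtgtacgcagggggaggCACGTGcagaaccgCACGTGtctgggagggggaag
Tef, chr15:81802531-81802566, + strand: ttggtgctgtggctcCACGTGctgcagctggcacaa
Bhlhe41, chr6:145865553-145865588, - strand: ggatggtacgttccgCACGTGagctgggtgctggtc
Per3, chr4:151044801-151044885, - strand: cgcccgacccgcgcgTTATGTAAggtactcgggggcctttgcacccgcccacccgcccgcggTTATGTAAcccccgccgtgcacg
The 3 E-boxes of Ciart begin 116, 58 and 44 bases before its start, and the 2 D-boxes of Per3 begin 205 and 158 bases before.

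Among the activators, Npas2, which can stand in for CLOCK as the partner of BMAL1, had 4.01, 4.47, 1.71 and 1.55 CPM at ZT12, against 23.9 to 31.3 CPM at ZT0. It was the gene with the largest fall among those named by size, 8.93-fold (log2 fold change -3.16, SE 0.31, adjusted p = 1.6e-09, edgeR). Arntl, on chr7:113178471-113314126, had 12.9, 14.5, 23.6 and 17.8 CPM at ZT12, against 76.8, 77.6, 73.7 and 73.1 CPM at ZT0, so that the highest ZT12 library lay far below the lowest ZT0 library. Its log2 fold change was -2.13 (SE 0.16, adjusted p = 2.6e-12, edgeR). Clock itself fell by much less, with 82.6 to 104 CPM at ZT12 and 119 to 129 CPM at ZT0 (log2 fold change -0.43, SE 0.07, adjusted p = 2.0e-04, edgeR).

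Among the repressors, Per2 had 81.8, 81.7, 53.8 and 66.3 CPM at ZT12, against 7.09, 7.74, 3.31 and 3.33 CPM at ZT0, which is 13.2-fold higher (log2 fold change 3.72, SE 0.29, adjusted p = 6.5e-12, edgeR). Per3 had 146 to 176 CPM at ZT12 and 11.8 to 18.8 CPM at ZT0, 11.0-fold higher. Ciart, which encodes the repressor CHRONO, was 10.2-fold higher, with 12.3 to 17.0 CPM at ZT12 and 1.26 to 1.59 CPM at ZT0. Per1 and Cry2 rose by about 1 log2 unit each. Per1 had 114 to 202 CPM at ZT12 and 59.7 to 92.8 CPM at ZT0 (log2 fold change 1.04, SE 0.26, adjusted p = 0.00834, edgeR), and Cry2 had 69.3 to 76.9 CPM at ZT12 and 33.3 to 37.9 CPM at ZT0 (1.06, SE 0.08, adjusted p = 8.9e-12, edgeR). Cry1 had 17.9, 21.2, 22.3 and 24.2 CPM at ZT12, against 25.6, 29.5, 18.1 and 20.7 CPM at ZT0. The ranges of Cry1 overlapped and the difference did not pass the test (log2 fold change -0.13, SE 0.13, adjusted p = 0.535, edgeR). Over the 6 adult times the mean of Cry1 was 23.5, 9.46, 10.3, 21.4, 35.7 and 43.5 CPM at ZT0, ZT4, ZT8, ZT12, ZT16 and ZT20, so ZT12 and ZT0 lay on either side of its low at ZT4 and its high at ZT20.

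Nr1d1 and Nr1d2 encode REV-ERBα and REV-ERBβ, which repress Arntl. Nr1d1 had 98.7, 108, 60.6 and 54.6 CPM at ZT12, against 16.5, 16.9, 24.2 and 19.3 CPM at ZT0 (4.18-fold, log2 fold change 2.06, SE 0.22), and Nr1d2 had 150.0 to 254 CPM at ZT12 and 37.3 to 54.6 CPM at ZT0 (4.30-fold). The ROR receptors are activators that compete with REV-ERB for the same sites. Rora at 0.24 (adjusted p = 0.214) and Rorb at 0.41 (adjusted p = 0.183) did not pass the edgeR test, and their groups overlapped.

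Among the output factors, Dbp, on chr7:45705100-45710203, was the gene with the largest rise of those named by size. It had 111, 114, 58.8 and 58.5 CPM at ZT12, against 4.13, 5.39, 5.86 and 4.38 CPM at ZT0, a 17.3-fold difference (log2 fold change 4.11, SE 0.29, adjusted p = 5.7e-13, edgeR). The lowest ZT12 library stood at 58.5 CPM and the highest ZT0 library at 5.86 CPM, and ZT12 replicates 3 and 4 held about as much as each other and less than replicates 1 and 2. Tef had 247 to 396 CPM at ZT12 and 52.9 to 62.1 CPM at ZT0 (5.60-fold) and Hlf averaged 82.9 ± 25.5 CPM at ZT12 and 45.4 ± 3.71 CPM at ZT0 (SD, n = 4 each; 1.82-fold). All 3 are transcription factors of the PAR bZIP family that act on D-boxes. Bhlhe41, which encodes the E-box repressor DEC2, had 3.39 to 6.64 CPM at ZT12 and 1.08 to 1.76 CPM at ZT0 (3.34-fold, adjusted p = 4.1e-04, edgeR). Its relative Bhlhe40 did not pass the test: it had 113, 122, 23.5 and 29.4 CPM at ZT12, against 88.4, 64.9, 63.8 and 57.8 CPM at ZT0, so that ZT12 replicates 1 and 2 lay above every ZT0 library and replicates 3 and 4 below. Nfil3, which represses at D-boxes, had 9.97 to 17.1 CPM at ZT12 and 16.0 to 28.3 CPM at ZT0 (log2 fold change -0.68, SE 0.37, adjusted p = 0.226, edgeR).

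Outside the loop, 0 of 9 genes for kinases, ligases and proteases that act on clock proteins were called by edgeR, DESeq2 or limma, with 2 higher and 2 lower at an unadjusted p under 0.05. Among 10 textbook clock outputs 1 was higher and 2 were lower, beside 4.11% and 6.11% of all genes. Tsc22d3, a glucocorticoid-induced leucine zipper, had 128 to 213 CPM at ZT12 and 60.1 to 108 CPM at ZT0 (log2 fold change 1.08, SE 0.34, adjusted p = 0.0364, edgeR), and it lost the call without any 1 of 6 libraries and with ZT12 replicates 3 and 4 left out. Klf10, a zinc finger repressor, was lower by 0.46 (SE 0.11; 55.0 ± 3.50 CPM at ZT12 and 75.9 ± 6.41 CPM at ZT0, SD, n = 4 each), as was Lonrf3, a RING finger gene, by 0.77 (SE 0.18; 12.6 to 22.6 CPM at ZT12 and 27.0 to 32.9 CPM at ZT0). Lonrf3 lost the call with ZT12 replicates 3 and 4 left out (adjusted p = 0.270, edgeR) and in the 8-library fit (adjusted p = 0.0885). The adult means place the 12 h contrast within the day. Dbp had means of 4.94, 18.1, 87.8, 85.6, 33.3 and 7.89 CPM from ZT0 to ZT20 in steps of 4 h, Per2 had 5.37, 3.00, 22.4, 70.9, 57.1 and 20.3 CPM, and Nr1d1 had 19.2, 78.2, 131, 80.4, 30.0 and 10.7 CPM. Of the 6 times, Per2 had its highest mean at ZT12, while Nr1d1 had it at ZT8 and Dbp stood near its highest at both ZT8 and ZT12.

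**Figure D2:**
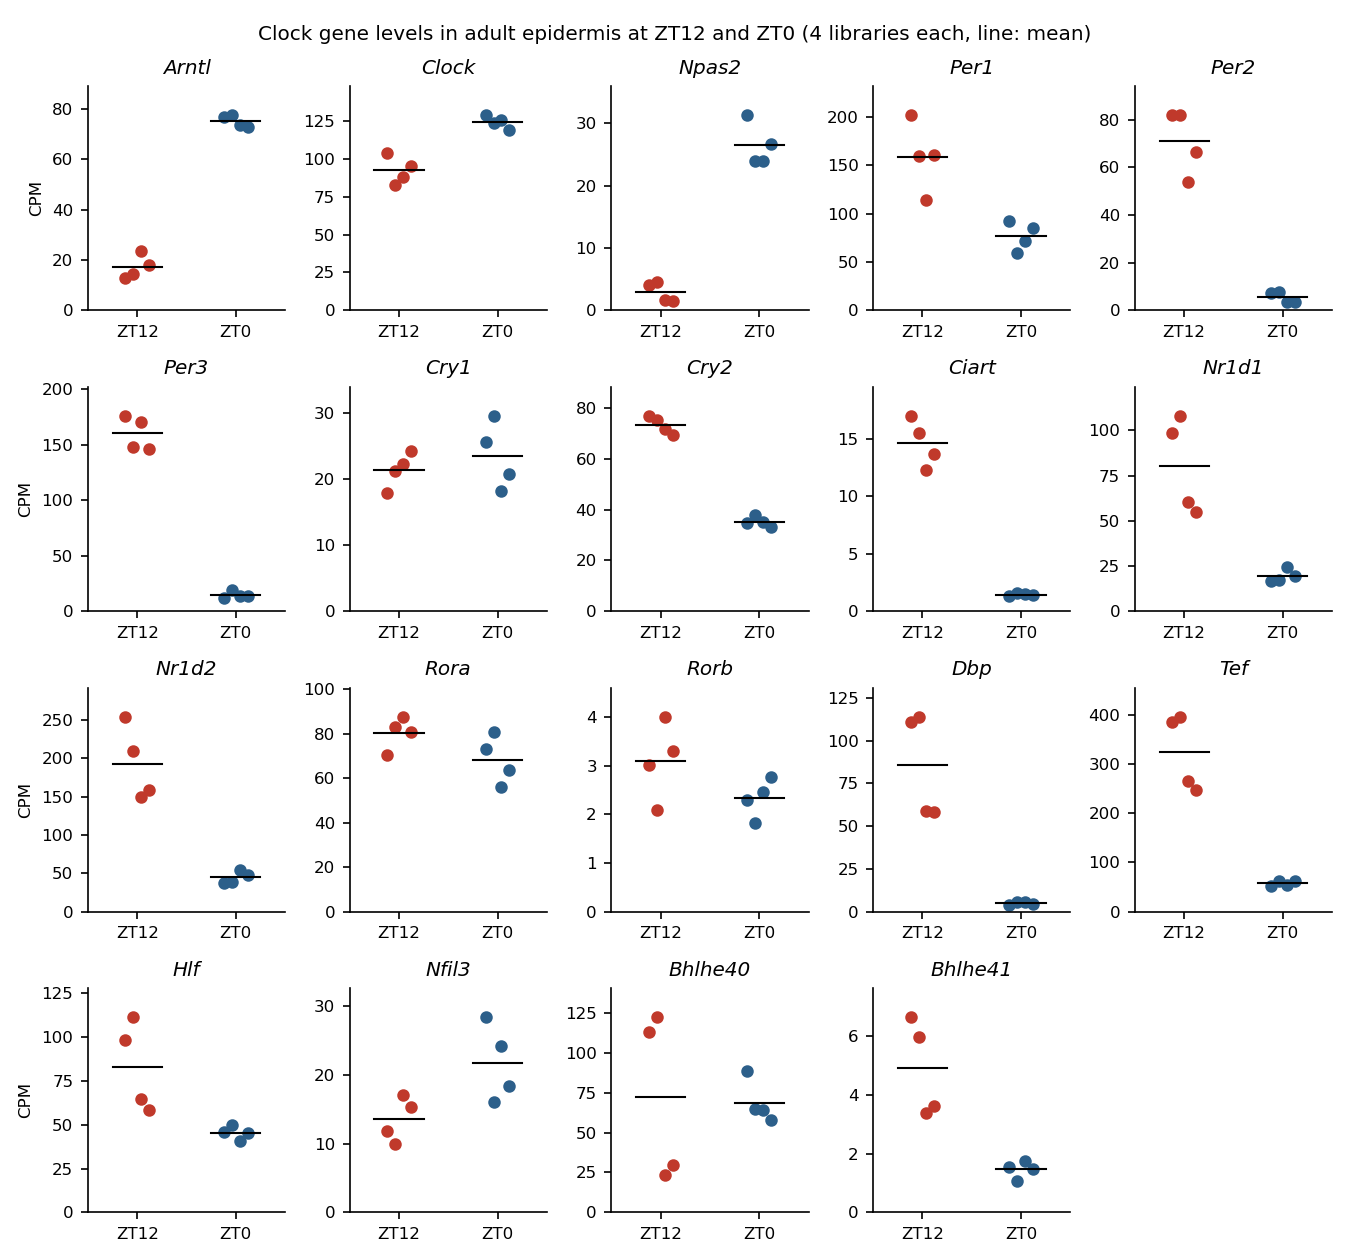
CPM of the 19 clock genes described in the 4 ZT12 libraries (left in each panel) and the 4 ZT0 libraries (right), with a line at each group's mean and a linear axis that starts at 0. Groups do not overlap for 14 of the genes, beside 11.3% of all genes tested, and Cry1, Rora, Rorb, Nfil3 and Bhlhe40 overlap.

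Genes of G2 and mitosis were lower at ZT12. Of 25 measured members of the list, 23 were called lower and none higher, beside 6.11% of all genes called lower. For the same 23 all ZT12 libraries lay below all ZT0 libraries, beside 6.93% of all genes. The median log2 fold change of the list was -1.13, beside 0.01 over all genes. The summed level of the list was 654, 630.3, 357 and 570.0 CPM at ZT12, against 1016, 1095, 1238 and 957 CPM at ZT0. ZT12 replicate 3 was the lowest library, and the other 3 ZT12 libraries lay close together and below ZT0. In a bulk suspension, fewer cells of a type and less RNA per cell cannot be told apart.

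Nusap1, a spindle protein that bundles microtubules, had 9.21, 10.3, 2.85 and 7.93 CPM at ZT12, against 23.6, 29.1, 30.8 and 24.9 CPM at ZT0 (log2 fold change -1.83, SE 0.31, adjusted p = 1.7e-04, edgeR). Aurka, a kinase of the spindle poles, had 4.42, 4.43, 2.38 and 3.99 CPM at ZT12, against 7.99, 9.50, 8.94 and 7.02 CPM at ZT0 (-1.13, SE 0.17, adjusted p = 2.6e-05, edgeR). Prc1, which organises the midzone of the spindle, had 20.2 to 38.0 CPM at ZT12 and 58.2 to 69.0 CPM at ZT0 (-1.05, SE 0.16), and the kinetochore protein gene Cenpf had 29.3 to 44.6 CPM at ZT12 and 69.5 to 82.9 CPM at ZT0 (-0.93, SE 0.16). Cyclin B1 (Ccnb1), which drives entry into mitosis, averaged 9.80 CPM at ZT12 and 26.6 CPM at ZT0 (-1.44, SE 0.34). Cdc20, which activates the anaphase-promoting complex, averaged 7.0 CPM at ZT12 and 18.6 CPM at ZT0 (-1.40, SE 0.31). The proliferation marker Mki67 averaged 136 CPM at ZT12 and 281 CPM at ZT0 (-1.05, SE 0.31). The 2 members that were not called were Hmmr, a spindle and hyaluronan receptor protein (-0.03), and the checkpoint kinase gene Ttk (-0.04).

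Promoters of mitotic genes are known for a CHR element, the site of the DREAM complex and B-MYB, and for CCAAT boxes bound by NF-Y. Both were in the 300-base window of 16 of the 21 list members with a window (searched as TTTGAA and CCAAT on both strands), beside 9.0% of all 27025 genes. The promoters of Cdc20 and Prc1 are shown as examples, with CHR and CCAAT matches in capitals.
Cdc20, chr4:118437344-118437411, - strand: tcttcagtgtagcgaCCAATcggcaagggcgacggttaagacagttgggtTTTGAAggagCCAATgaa
Prc1, chr7:80294399-80294466, + strand: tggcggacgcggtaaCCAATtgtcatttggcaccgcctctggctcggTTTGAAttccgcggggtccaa
The CHR match begins 18 bases before the start of Cdc20 and 30 bases before that of Prc1.

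The number of mitotic genes called depended on the libraries in the fit. It was 17 to 23 when single libraries were left out. It was 6 with ZT12 replicates 3 and 4 left out (median -0.88), beside 1.19% of all genes called lower. In the 8-library fit it was 7, beside 0.805%, and none was higher in any of these fits. Markers of basal keratinocytes, the layer that divides, moved with part of this. The basal list mean, centred per gene on the log2 scale, was 0.36, 0.26, -0.81 and -0.66 in ZT12 replicates 1 to 4 and 0.11 to 0.27 in the ZT0 libraries. Of its 15 members 3 were called lower (Itga3, Itga6 and Trp63), beside 6.11% of all genes. With ZT12 replicates 3 and 4 left out, none was lower and 2 were higher, beside 1.19% and 1.43% of all genes. The part of the basal markers in the mitotic difference was not tested. In the 8-library fit edgeR called 0 of the 15 basal markers, with 1 lower at an unadjusted p under 0.05.

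Histone genes were lower at ZT12 too. Replication-dependent histone genes are transcribed mainly while DNA is copied, and their mRNAs end in a stem-loop in place of a poly(A) tail. Of 63 such genes 61 passed the filter on low counts and 60 were called lower at ZT12, beside 6.11% of all genes called lower. The list had a median log2 fold change of -1.41 and a range of -1.96 to -0.07. This list was drawn up after values had been seen; of the 17 histone genes in the list chosen earlier, all 17 were lower. The summed level of the full histone list was 1201, 1822, 763 and 1303 CPM at ZT12, against 3016, 3694, 3326 and 2749.6 CPM at ZT0. The highest ZT12 library lay well below the lowest ZT0 library, and replicate 3 was again the lowest. At the other adult times, ZT4, ZT8, ZT16 and ZT20, the sum ran from 1096 to 2246 CPM. Adult ZT0 thus lay above every other adult time.

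The fall ran over all 5 classes of histone: 5 of 5 H1 genes, 16 of 16 H2A genes, 14 of 15 H2B genes, 12 of 12 H3 genes and 13 of 13 H4 genes were lower, with class medians of -1.33, -1.41, -1.46, -1.56 and -1.28. It also ran over the gene clusters, with 50 of 50 on chromosome 13 between 21715711 and 23934913, 9 of 10 on chromosome 3 between 96219885 and 96270192, and the gene on chromosome 6. The gene that did not pass the test was H2bc21 on chromosome 3, which averaged 7.26 CPM at ZT12 and 7.62 CPM at ZT0 (log2 fold change -0.07, SE 0.12). Histone genes are near-identical copies, and no rule for reads that match several of them is given in the sources used here, so single members are uncertain and the sums are firmer.

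H2bc9 had 3.80, 5.53, 1.40 and 4.83 CPM at ZT12, against 13.7, 18.3, 17.1 and 11.6 CPM at ZT0 (log2 fold change -1.96, SE 0.40, adjusted p = 0.00137, edgeR). H3c2, for a replicative histone H3, had 6.51, 8.72, 2.17 and 8.04 CPM at ZT12, against 21.4, 27.5, 25.0 and 17.8 CPM at ZT0 (-1.85, SE 0.41, adjusted p = 0.00345, edgeR), and lost the call with ZT12 replicates 3 and 4 left out (adjusted p = 0.0877) and in the 8-library fit (adjusted p = 0.0506). H4c4 had 29.3 to 58.3 CPM at ZT12 and 90.7 to 116 CPM at ZT0 (-1.31, SE 0.17, adjusted p = 2.0e-06, edgeR), and the linker histone gene H1f4 had 46.1 to 88.2 CPM at ZT12 and 138 to 149 CPM at ZT0 (-1.12, SE 0.18). CCAAT boxes were in the windows of 14 of the 16 listed histone genes that have one, beside 41.1% of all genes. They were also in 5 of 5 repressor, 4 of 5 output factor and 14 of 22 replication genes, lists with no member called lower. Among other lists with genes called lower, they were in 19 of 21 mitotic, 8 of 16 heat shock and 2 of 3 activator genes. The promoter of H3c2 holds 2 CCAAT boxes and a CHR match.
H3c2, chr13:23752238-23752313, + strand: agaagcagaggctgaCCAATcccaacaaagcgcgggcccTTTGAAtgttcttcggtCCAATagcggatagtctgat
With ZT12 replicates 3 and 4 left out 27 of the histone genes were called lower (median -1.16), beside 1.19% of all genes. In the 8-library fit 38 were lower, beside 0.805% of all genes, and without single libraries 51 to 60. None was higher in any of these fits.

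The genes of DNA replication itself went the other way where they moved. Of 26 measured members, 3 were higher at ZT12 and none lower, beside 4.11% of all genes called higher, and the list median was 0.37. E2f1, the transcription factor that switches on S-phase genes, had 8.71, 6.78, 5.28 and 5.60 CPM at ZT12, against 4.54, 4.29, 4.33 and 3.65 CPM at ZT0 (log2 fold change 0.65, SE 0.15, adjusted p = 0.00454, edgeR). Cdt1, which loads the replicative helicase, had 3.08 to 13.6 CPM at ZT12, against 4.55 to 5.76 CPM at ZT0 (0.86, SE 0.26, adjusted p = 0.0310, edgeR). The helicase subunit gene Mcm2 had 44.5, 47.1, 13.8 and 22.2 CPM at ZT12, against 15.3, 20.5, 19.3 and 13.2 CPM at ZT0 (0.90, SE 0.27, adjusted p = 0.0310, edgeR). For Cdt1 and Mcm2, ZT12 replicates 1 and 2 were at more than 2 times every ZT0 library and replicate 3 lay within the ZT0 range or below it.

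The replication list as a whole showed the same split of libraries. Its summed level was 954, 909, 484 and 596 CPM in ZT12 replicates 1 to 4, against 565, 634, 649 and 535 CPM at ZT0. With ZT12 replicates 3 and 4 left out, 15 of the 26 genes were higher at ZT12 (median 0.80), beside 1.43% of all genes in that fit. In the 8-library fit 0 of 26 were called by edgeR, with 5 higher at an unadjusted p under 0.05, and without single libraries 1 to 11. The low basal keratinocyte markers of ZT12 replicates 3 and 4 moved with this, and their part in it was not tested. At ZT12 in replicates 1 and 2, replication genes were thus high while histone and mitotic genes were low.

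**Figure D3:**
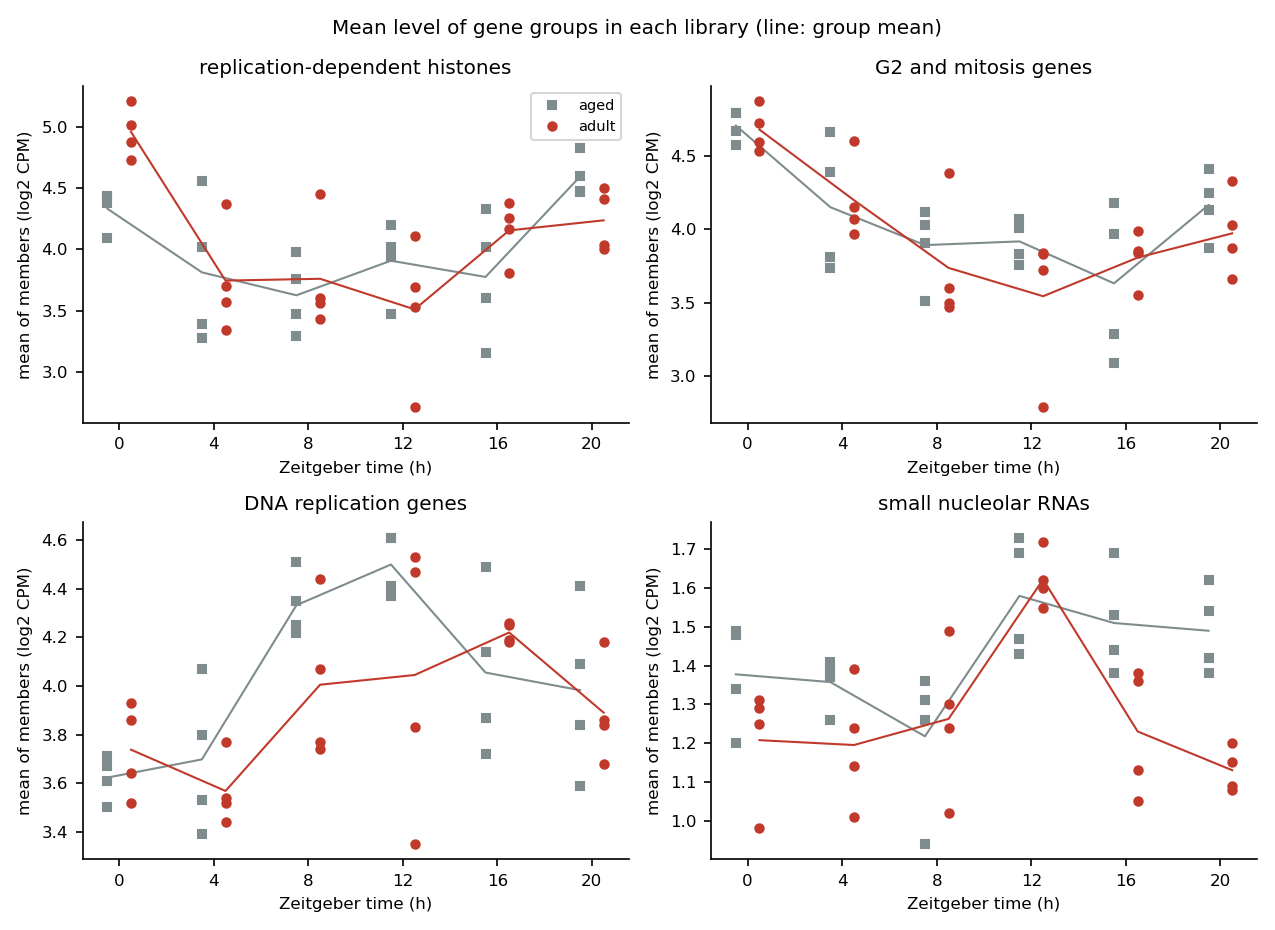
Mean log2 CPM of the members of 4 gene groups in each of the 48 libraries over the 6 Zeitgeber times, with aged libraries as squares just left of each time, adult libraries as circles just right of it, and lines through the group means. Adult histone genes stand at 2.71 to 4.11 at ZT12 and at 4.73 to 5.21 at ZT0, and adult replication genes at ZT12 split into 4.53 and 4.47 against 3.35 and 3.83.

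Many small nucleolar RNAs were higher at ZT12. Most of these RNAs guide the modification and cutting of ribosomal RNA. Of 109 that passed the filter on low counts, of 115, 33 were called higher and none lower, beside 4.11% of all genes called higher, and the median log2 fold change was 0.40. The list holds all annotated members and was drawn up after values had been seen. Their summed level was 1978, 2308, 1962 and 2175 CPM at ZT12, against 1201, 1268, 1023 and 1701 CPM at ZT0, with no overlap. With ZT12 replicates 3 and 4 left out 19 were higher, beside 1.43% of all genes, and in the 8-library fit 11, beside 0.576%. Without single libraries 18 to 32 were higher.

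Snord17 had 259.6, 328, 254 and 305 CPM at ZT12, against 98.4, 98.1, 87.2 and 143 CPM at ZT0 (log2 fold change 1.43, SE 0.20, adjusted p = 1.0e-05, edgeR). Snora23 had 40.8 to 49.6 CPM at ZT12 and 11.4 to 18.6 CPM at ZT0 (1.68, SE 0.25), and Snora81 averaged 44.7 ± 3.17 CPM at ZT12 and 17.5 ± 4.11 CPM at ZT0 (SD, n = 4 each; log2 fold change 1.36, SE 0.19). Snora73b had 347 to 430.0 CPM at ZT12 and 147 to 257 CPM at ZT0 (1.09, SE 0.20). These 4 overlap the annotated genes Snx5, Ipo7, Eif4a2 and Snhg3, their hosts, so reads of the host's unspliced RNA cannot be told apart from them. The host genes did not pass the test: Snx5 averaged 71.3 CPM at ZT12 and 73.2 CPM at ZT0 (-0.04), Ipo7 160.3 CPM and 166 CPM (-0.05), Eif4a2 283 CPM and 315 CPM (-0.15), and Snhg3 5.51 CPM and 5.05 CPM (0.12).

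Some other small RNAs moved likewise. The U3 RNA gene Rnu3a, whose RNA is needed for early cuts of the ribosomal precursor, had 480.4, 633, 604 and 679.7 CPM at ZT12, against 220.1, 256, 209 and 352 CPM at ZT0 (log2 fold change 1.21, SE 0.25, adjusted p = 0.00162, edgeR). The spliceosomal U5 gene Rnu5g had 12.2 to 17.8 CPM at ZT12 and 2.53 to 5.51 CPM at ZT0 (1.70, SE 0.28). The Y RNA gene Rny1 had 118, 169.6, 91.5 and 83.7 CPM at ZT12, against 35.9, 34.6, 22.7 and 42.8 CPM at ZT0 (1.77, SE 0.31, adjusted p = 2.3e-04, edgeR), and Rny3 averaged 136 CPM at ZT12 and 56.2 CPM at ZT0 (1.28, SE 0.31). Of 13 genes annotated as small nuclear RNA edgeR called 8 higher and 0 lower, beside 4.11% of all genes called higher, with a median of 0.90. DESeq2 and limma each called 8 higher and 1 lower. In the 8-library fit 6 were higher, beside 0.576% of all genes, and 7 with ZT12 replicates 3 and 4 left out, beside 1.43%. Of the 8, 5 are near-identical copies of U3, which like Snord73b, also among the 8, is a nucleolar RNA despite the annotation. Most of the 8 thus belong with the group above, and the others are Rnu5g and Rnu12 (0.90). Rnu1a1 (0.02), Rnu2-10 (-0.60), Rnu11 (0.17) and Rnu7 (-0.11) were not called. All 16 genes annotated as small nuclear RNA, with those that did not pass the filter, summed to 15464 to 20680.2 CPM at ZT12 and 19280.1 to 21296 CPM at ZT0. Most of it was Rn7sk, the RNA that holds back the elongation factor P-TEFb. Rn7sk averaged 14983 CPM at ZT12 and 19169.7 CPM at ZT0 (log2 fold change -0.36, adjusted p = 0.0519, edgeR). Of 84 ribosomal protein genes, 14 were lower and none higher (median -0.28), beside 6.11% of all genes called lower. With ZT12 replicates 3 and 4 left out 0 were called by edgeR, with 1 higher at an unadjusted p under 0.05, and in the 8-library fit 0, with 14 lower at an unadjusted p under 0.05.

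Part of the genes that break down fatty acids were lower at ZT12. Of 23 measured members of a list drawn up after values had been seen, 9 were lower and none higher, beside 6.11% of all genes called lower, with a list median of -0.26. With ZT12 replicates 3 and 4 left out 5 were lower, beside 1.19% of all genes, and in the 8-library fit 4, beside 0.805%. Hadha and Hadhb encode the 2 subunits of the mitochondrial trifunctional protein. Hadha had 124, 126, 133 and 129 CPM at ZT12, against 204, 162, 176 and 208 CPM at ZT0 (log2 fold change -0.55, SE 0.07, adjusted p = 5.4e-06, edgeR), and Hadhb had 88.7 to 94.5 CPM at ZT12 and 126 to 168 CPM at ZT0 (-0.67, SE 0.10). Acadl, a dehydrogenase of long chains, had 23.3, 28.2, 24.1 and 23.8 CPM at ZT12, against 40.0, 33.4, 38.4 and 43.3 CPM at ZT0 (-0.64, SE 0.08, adjusted p = 1.9e-06, edgeR). Etfdh, which passes the electrons on to ubiquinone, had 38.0 to 40.0 CPM at ZT12 and 51.1 to 57.7 CPM at ZT0 (-0.48, SE 0.07). For all 4 the ZT12 libraries lay close together, and the calls held with ZT12 replicates 3 and 4 left out and in the 8-library fit.

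Among the others of the list, Cpt1a, the entry step into mitochondria, averaged 107 CPM at ZT12 and 103 CPM at ZT0 (log2 fold change 0.05) and did not pass the test. Angptl4, a gene of fasting and PPAR signalling that encodes an inhibitor of lipoprotein lipase, varied widely at ZT0. It had 6.88, 9.15, 2.41 and 3.15 CPM at ZT12, against 37.6, 12.3, 23.9 and 44.0 CPM at ZT0 (-2.44, SE 0.54, adjusted p = 0.00307, edgeR). It was not called with ZT12 replicates 3 and 4 left out (adjusted p = 0.144, edgeR) or in the 8-library fit. Genes of glycolysis had 5 of 17 lower (median -0.26), beside 6.11% of all genes, among them Pfkp (-0.44) and Gapdh (-0.50). In the 8-library fit edgeR called 0, with 1 higher and 8 lower at an unadjusted p under 0.05, and 1 of 17 was lower with ZT12 replicates 3 and 4 left out. Gpam, which starts triglyceride synthesis, was named after its values were seen: it had 93.5 to 115 CPM at ZT12 and 56.9 to 64.4 CPM at ZT0 (0.75, SE 0.11, adjusted p = 1.0e-05, edgeR).

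Some chaperones of the heat shock response were lower, with 7 of 20 called lower, none higher and all 20 below 0 (median -0.25), beside 6.11% of all genes called lower. Hsp90aa1 had 293, 255, 158 and 196 CPM at ZT12, against 406, 400.3, 321 and 345 CPM at ZT0 (log2 fold change -0.71, SE 0.18, adjusted p = 0.0101, edgeR). Ahsa1, a cofactor that speeds up HSP90, had 38.3 to 46.2 CPM at ZT12 and 52.8 to 65.8 CPM at ZT0 (-0.51, SE 0.09), and the small heat shock gene Hspb8 had 122 to 151 CPM at ZT12 and 163 to 215 CPM at ZT0 (-0.53, SE 0.12). In the endoplasmic reticulum, 5 of 21 genes of the unfolded protein response were lower, led by the calcium-binding chaperone Calr with 173 to 223 CPM at ZT12 and 254 to 322 CPM at ZT0 (-0.57, SE 0.14). With ZT12 replicates 3 and 4 left out 2 of each list were lower, Ahsa1 and Calr among them, beside 1.19% of all genes. In the 8-library fit 1 of each was lower, beside 0.805%, with Ahsa1 among them but not Calr (adjusted p = 0.0654, edgeR). Hsp90aa1 lost the call in both fits (adjusted p = 0.377 and 0.126, edgeR), as did Hspb8 (0.0713 and 0.0658). Hsp90aa1 also lost it without ZT12 replicate 3 alone.

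Inflammatory and early response lists gave few calls. Of 20 NF-κB targets 4 were lower (median -0.37), of 24 immediate early genes 2 (median -0.58), and of 24 interferon-induced genes 2 (median -0.37), beside 6.11% of all genes called lower. The immediate early and interferon shares lay near that background. With ZT12 replicates 3 and 4 left out 0 were called in each list by edgeR and the medians were -0.03, -0.09 and -0.08, with 4, 2 and 2 genes at an unadjusted p under 0.05. In the 8-library fit 2 NF-κB targets were lower and edgeR called 0 of the other lists, with 6 immediate early and 2 interferon-induced genes lower at an unadjusted p under 0.05. The Langerhans cell markers of the cell type lists were low in the same replicates, at -1.82 and -1.19 on the centred log2 scale, beside 0.73 and 0.58 in ZT12 replicates 1 and 2 and -0.34 to 0.77 at ZT0, and their part was not tested. The chemokine gene Ccl20 had 0.410, 0.345, 0.155 and 0.158 CPM at ZT12, against 1.28, 0.976, 1.21 and 1.05 CPM at ZT0 (log2 fold change -2.05, SE 0.44, adjusted p = 0.00229, edgeR). Jund, a subunit of AP-1, had 143 to 256 CPM at ZT12 and 301 to 389.8 CPM at ZT0 (-0.69, SE 0.16). Hippo pathway genes and their targets, to which YAP belongs, gave 1 of 20 higher (Tead1, 0.42) and 1 of 18 lower (Ajuba, -0.40), shares near the 4.11% and 6.11% of all genes. Neither gene was called with ZT12 replicates 3 and 4 left out (adjusted p = 0.139 and 0.693, edgeR) or in the 8-library fit (0.0839 and 0.200). Yap1 itself averaged 164 CPM at ZT12 and 157 CPM at ZT0 (0.06, adjusted p = 0.578, edgeR).

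By edgeR, 0 of the 29 markers of differentiated keratinocytes, 19 of hair shaft, 15 of Langerhans cells and 14 of epidermal T cells were called, and their medians were 0.49, 1.68, -0.46 and -0.43. At an unadjusted p under 0.05, 9 markers of differentiated keratinocytes were higher and 0 of the other 3 lists differed. DESeq2 called 2 differentiated markers higher and limma 0, and neither called any of the others. Those medians came with wide spread between libraries. The summed hair shaft list ran from 42.6 to 710.0 CPM at ZT12 and from 39.4 to 138 CPM at ZT0, and the summed Langerhans cell list from 229 to 595 CPM at ZT12 and from 371 to 656 CPM at ZT0. The epidermal label held, with Krt5 of the basal layer at a mean of 2881 CPM at ZT12 and 3024 CPM at ZT0 and Krt10 of the layers above at 4450.3 CPM at ZT12 and 3240 CPM at ZT0. Ly6g of neutrophils and Ms4a2 of mast cells were at 0 in all 8 libraries. All 11 neutrophil markers, of which 7 passed the filter on low counts, summed to 78.9 to 127 CPM at ZT12 and 85.8 to 93.8 CPM at ZT0. Most of it was the chemokine receptor gene Cxcr2, with a mean of 100.4 CPM at ZT12 and 81.5 CPM at ZT0. Kit, a marker of both mast cells and melanocytes in the lists used, averaged 3.59 CPM at ZT12 and 2.71 CPM at ZT0. It was the only 1 of 7 mast cell markers that passed the filter on low counts. Lists of other tissues differed in level. Their sums are over all members, also those that did not pass the filter on low counts. The 11 endothelial markers summed to 3.83 to 5.36 CPM at ZT12 and 2.76 to 3.79 CPM at ZT0. For the 17 fibroblast markers it was 76.1 to 163 CPM at ZT12 and 112 to 222 CPM at ZT0. The 8 smooth muscle markers summed to 147 to 308 CPM at ZT12 and 125 to 181 CPM at ZT0, and the 7 Schwann cell markers to 95.9 to 125 CPM at ZT12 and 81.8 to 90.5 CPM at ZT0. The part of these cells in the results was not tested. Of 10 measured macrophage and monocyte markers, 1 was lower and 1 higher (median 0.26), beside 6.11% and 4.11% of all genes. The monocyte gene Ly6c2 was lower (-1.72, SE 0.29), with 0.394 to 0.561 CPM at ZT12 and 1.48 to 2.12 CPM at ZT0. The scavenger receptor gene Cd163 was higher, with 2.87, 2.44, 7.51 and 6.44 CPM at ZT12 and 2.06 to 2.64 CPM at ZT0 (1.02, SE 0.26, adjusted p = 0.00917, edgeR), and it lost the call with ZT12 replicates 3 and 4 left out (adjusted p = 0.871, edgeR).

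**Figure D4:**
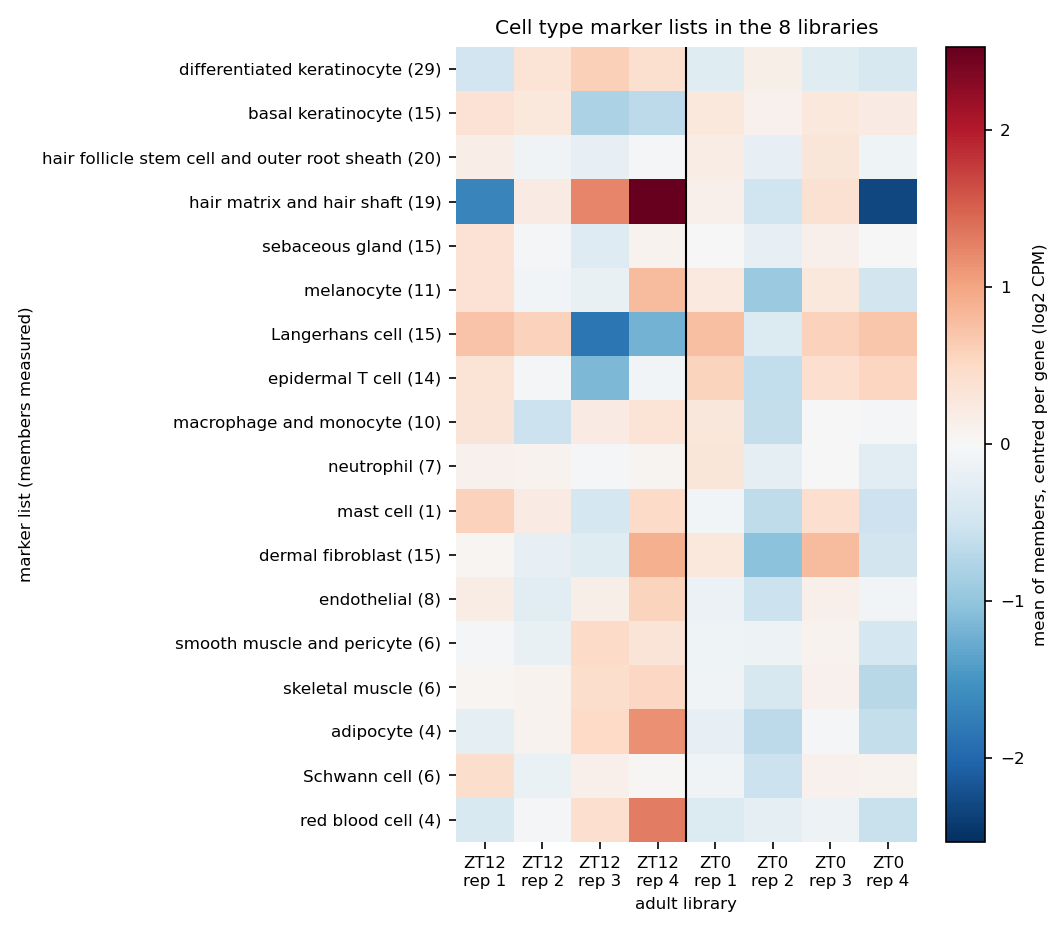
Mean of the members of each of 18 cell type lists in the 8 adult libraries, centred per gene over these libraries (log2 CPM), with the 4 ZT12 libraries left of the line and the 4 ZT0 libraries right of it. ZT12 replicates 3 and 4 are low in Langerhans cell markers (-1.82 and -1.19) and basal keratinocyte markers (-0.81 and -0.66), and hair shaft markers run from -2.31 to 2.53.

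Genes outside these groups also stood among the largest differences. Cxcl14, a chemokine made by keratinocytes, had 101, 132, 77.7 and 70.1 CPM at ZT12, against 441, 284, 342 and 503 CPM at ZT0 (log2 fold change -2.04, SE 0.28, adjusted p = 5.2e-06, edgeR). Tppp3, a tubulin polymerisation protein, had 27.7, 29.3, 14.1 and 21.8 CPM at ZT12, against 109, 124, 69.0 and 79.4 CPM at ZT0 (-2.04, SE 0.35), and Spon2, a secreted matrix protein, had 0.828 to 1.77 CPM at ZT12 and 3.83 to 8.27 CPM at ZT0 (-2.09, SE 0.43), a call that was lost with ZT12 replicates 3 and 4 left out (adjusted p = 0.0673, edgeR). Ly6c1, a surface protein, had 2.86 to 4.70 CPM at ZT12 and 11.3 to 17.2 CPM at ZT0 (-1.85, SE 0.24). Over the 6 adult times Cxcl14 averaged 393, 177, 133, 95.2, 151 and 167 CPM and Tppp3 averaged 95.3, 55.8, 13.9, 23.2, 75.1 and 84.4 CPM from ZT0 to ZT20. Grik3, a glutamate receptor subunit, was high in ZT12 replicates 3 and 4, with 1.49, 1.30, 6.63 and 6.44 CPM at ZT12, against 1.22, 0.997, 1.26 and 0.766 CPM at ZT0 (1.89, SE 0.51), and it lost the call without those libraries (0.40, adjusted p = 0.857, edgeR).

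Some smaller differences were as regular as those of the clock genes, and these were picked after their values were seen. Ifrd2 had 21.1, 22.6, 18.6 and 22.2 CPM at ZT12, against 12.3, 12.9, 11.7 and 12.1 CPM at ZT0 (log2 fold change 0.78, SE 0.08, adjusted p = 1.6e-09, edgeR). Lonrf1, a RING finger gene, had 23.2 to 27.9 CPM at ZT12 and 13.5 to 17.9 CPM at ZT0 (0.73, SE 0.08). Ttc9 was lower, with 5.24 to 12.5 CPM at ZT12 and 28.7 to 39.7 CPM at ZT0 (-1.78, SE 0.22), as was the semaphorin receptor gene Plxnd1, with 2.56 to 4.55 CPM at ZT12 and 11.2 to 12.5 CPM at ZT0 (-1.72, SE 0.25). All 4 held with ZT12 replicates 3 and 4 left out and in the 8-library fit. Ccdc116 and its overlapping neighbour Ydjc on chromosome 16 rose together. Ccdc116 had 1.94 to 2.52 CPM at ZT12 and 0.600 to 0.816 CPM at ZT0 (1.76, SE 0.18), and Ydjc 2.78 to 3.60 CPM at ZT12 and 1.26 to 1.68 CPM at ZT0 (1.19, SE 0.16). Reads of overlapping genes may be shared, since the strand setting of the counting is not given in the sources used here.

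In aged epidermis the same contrast called 262 genes higher at ZT12 (1.45% of those tested) and 293 lower (1.62%). Both ages called 254 genes in the same direction and 1 in the opposite direction, and these 254 are 45.8% of the aged calls and 13.8% of the adult calls. The clock genes differed by similar amounts: in aged epidermis the log2 fold change was 4.07 for Dbp, 3.83 for Per2, -3.04 for Npas2 and -2.11 for Arntl, and the same 14 of 19 passed the test. The difference between ages was itself tested, as the aged difference minus the adult difference, and 0 of the 19 clock genes passed with edgeR, DESeq2 or limma or had an unadjusted p under 0.05. Over all genes 15 passed, 0.0831% of those tested, of which 3 were higher in aged and 12 lower, while 1761 had an unadjusted p under 0.05.

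Of those 15 genes, 5 were small nucleolar RNAs. Snora81 averaged 33.3 CPM at ZT12 and 44.4 CPM at ZT0 in aged epidermis, against 44.7 CPM at ZT12 and 17.5 CPM at ZT0 in adult epidermis, so that it was low in adult ZT0 alone of these 4 groups (aged minus adult -1.77, SE 0.27, adjusted p = 6.5e-04, edgeR). Snord17 averaged 218 CPM at ZT12 and 278 CPM at ZT0 in aged epidermis, against 287 CPM at ZT12 and 107 CPM at ZT0 in adult epidermis (-1.78, SE 0.28). Snora23 averaged 34.1 CPM at ZT12 and 37.7 CPM at ZT0 in aged epidermis, against 45.3 CPM at ZT12 and 14.1 CPM at ZT0 in adult epidermis (-1.83, SE 0.34). The protein-coding genes named by the same rule were Apoc1, an apolipoprotein, and Clec4a2, a lectin receptor of myeloid cells. Apoc1 averaged 79.6 CPM at ZT12 and 77.4 CPM at ZT0 in aged epidermis, against 63.9 CPM at ZT12 and 111 CPM at ZT0 in adult epidermis (0.84, SE 0.15, adjusted p = 0.00505, edgeR). Clec4a2 averaged 0.782 CPM at ZT12 and 1.08 CPM at ZT0 in aged epidermis, against 1.06 CPM at ZT12 and 0.640 CPM at ZT0 in adult epidermis (-1.19, SE 0.23).

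The cell cycle groups differed in size between ages without passing that test. Of the 61 histone genes 1 was lower in aged epidermis (median -0.42) and 60 in adult epidermis (median -1.41). Over all genes 1.62% were lower in aged and 6.11% in adult epidermis. The summed level of the full histone list was 763 to 1822 CPM at ZT12 and 2749.6 to 3694 CPM at ZT0 in adult epidermis. In aged epidermis it was 1127 to 1859 CPM at ZT12 and 1753 to 2205 CPM at ZT0. The ages thus overlapped at ZT12, and all adult ZT0 libraries lay above all aged ZT0 libraries. With edgeR, DESeq2 or limma 0 of the 61 passed the test of the difference. The list median of that difference was 0.97, and 50 of the 61 had an unadjusted p under 0.05, all with the higher difference in aged epidermis. Of all 18044 genes 1761 had an unadjusted p under 0.05, in either direction. Mitotic genes had 10 of 25 lower in aged epidermis (median -0.78), beside 1.62% of all genes. Replication genes had 18 of 26 higher (median 0.88), beside 1.45%. Of each list 0 passed the test of the difference with any of the 3 tools. At an unadjusted p under 0.05 it was 0 of the mitotic and 6 of the replication genes. Among small nucleolar RNAs 6 of 109 were higher in aged epidermis (median 0.21), beside 1.45% of all genes. The median of the 23 genes of fatty acid oxidation was 0.05 in aged epidermis, with 2 lower, beside 1.62% of all genes. The 2 were Acadl (-0.44) and Ppargc1a (-1.03), a coactivator of mitochondrial genes.

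**Figure D5:**
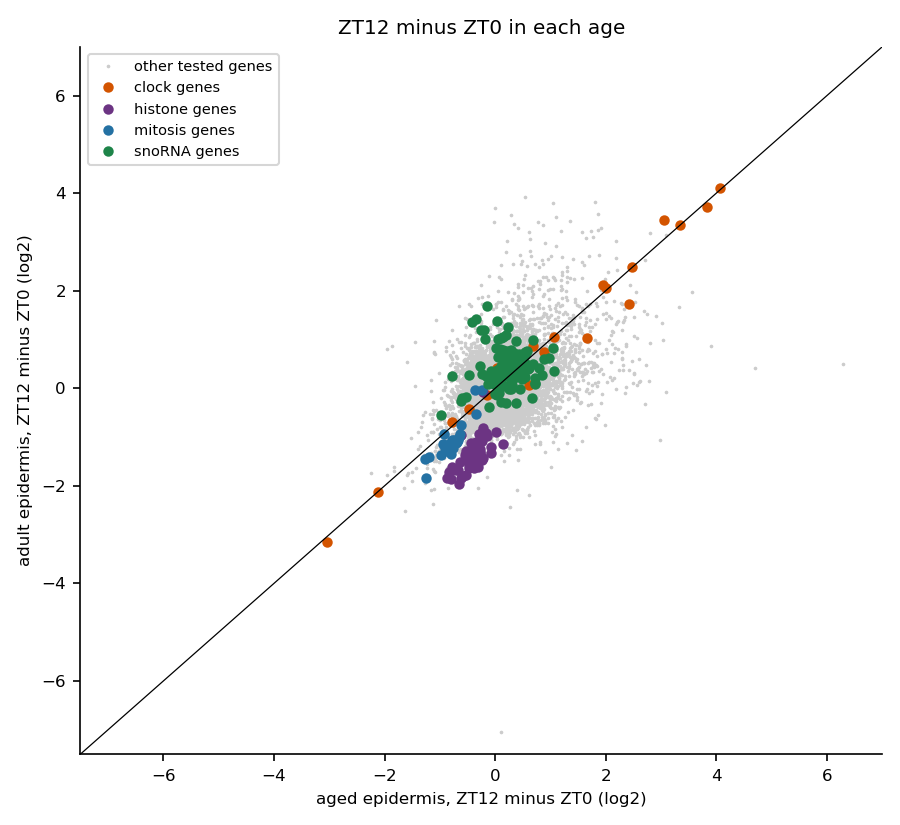
The log2 difference ZT12 minus ZT0 in aged epidermis (x axis) against that in adult epidermis (y axis) for the 18044 genes tested, with the line of equal differences. Clock genes lie along the line from Npas2 at -3.04 and -3.16 to Dbp at 4.07 and 4.11, and most histone genes lie below it, with medians of -0.42 in aged and -1.41 in adult epidermis.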

How the data were processed

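Epidermal cell suspensions of adult and aged mice were profiled by total RNA sequencing after removal of ribosomal RNA with a stranded kit, per the labels' protocols. The submitters' processing notes name Trim Galore, STAR 2.7.10a, featureCounts and the mouse genome mm10 (GRCm38); no annotation, strand setting or treatment of reads with several matches is given in the sources used here. The values used were whole-number counts per gene deposited by the authors for 24996 Entrez identifiers, of which 23476 were given a symbol from RefSeq. The other 1520 held 3.66% of the counts. Total counts were 40761084 to 49229498 in the 48 libraries.

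Counts were tested in edgeR 4.0.16 (R 4.3.3). The filter on low counts (minimum 10, minimum total 15) left 18044 genes, TMM factors scaled the libraries, and robust quasi-likelihood fits had 1 mean for each of the 12 groups, so that all 48 libraries shared the estimate of spread. The contrasts were adult ZT12 minus ZT0, the same in aged mice, and aged minus adult. P-values were adjusted by Benjamini and Hochberg over all genes tested. log2 CPM used a prior count of 2. The method was tested on simulated counts. Alternatives were DESeq2 1.42.0, its size factors within edgeR, limma 3.58.1, other filters, a threshold of 0.01, a replicate block, fewer libraries and each library left out in turn.

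Genes and lists were chosen with earlier results of these data known. Those named were the 10 largest rises and 10 largest falls among called genes with no overlap of the 2 groups and a mean level of 0 or more on the log2 CPM scale (predicted genes left out), the genes of the 4 clock lists, up to 4 members with the smallest p from every other list, and the 5 smallest p for the difference between ages. Host genes, further members of a list and genes said to be picked after their values were seen stand outside the rule. Lists for all histone genes, small nucleolar RNAs, small nuclear RNAs, ribosomal proteins and fatty acid oxidation were added after seeing the data, as were the fits without ZT12 replicates 3 and 4 and without mitochondrial RNA genes. Some genes that the rule names are not reported here. Promoter sequences are from RefSeq. Figures were drawn with matplotlib from the tables of results.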

Additional observations from a re-analysis of the deposited data

Results flagged for a closer look

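Of 72 groups of 4 libraries examined for 36 genes, 1 held a library farther from the rest than Dixon's 95% limit, where chance gives about 1 in 20 groups. It was Ccdc116 at adult ZT12, where replicate 2 was the lowest and its gap was 0.90 of the group's range.

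The difference ZT12 minus ZT0 differed between ages in 15 genes by the test of that difference (edgeR, aged minus adult on the log2 scale). For the 5 with the smallest p, predicted genes left out, it was -1.77 for Snora81, -1.78 for Snord17, -1.83 for Snora23, -1.19 for Clec4a2 and 0.84 for Apoc1.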

How the results depend on the processing

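The 741 higher and 1103 lower genes became 197 and 423 at an adjusted p under 0.01, 98 and 137 in a fit to the 8 libraries alone, and 263 and 218 with adult ZT12 replicates 3 and 4 left out together, where 6 of the 1844 calls had the opposite sign. Without single libraries they ran from 264 to 1543 higher and from 456 to 1718 lower, lowest without ZT12 replicate 3 (264 and 456) and replicate 4 (293 and 486), highest without ZT12 replicate 2 (1543 and 1718) and, among higher genes, without ZT12 replicate 1 (1422). Without ZT0 replicate 4 they were 333 and 579, without ZT0 replicate 3 they were 370 and 678, and without ZT0 replicate 1 726 genes were lower. The 15 genes that differed between ages became 4 at 0.01, 32 with DESeq2, 3 with the 16 libraries alone, 4 with ZT12 replicates 3 and 4 left out, and 4 to 234 without single libraries (4 without aged ZT12 replicate 2, 234 without aged ZT12 replicate 3, 116 without adult ZT12 replicate 2, 6 without adult ZT12 replicate 4). The cause of these shifts was not tested. Residuals of same-numbered adult ZT12 and ZT0 libraries correlated at 0.08, -0.03, -0.13 and -0.32, and those of libraries with different numbers at -0.32 to 0.34. Whether replicate numbers pair the libraries cannot be settled from so few values. With the number as a block over all libraries 670 genes were higher, 1079 lower and 16 differed between ages; with the block in the 8 or 16 libraries alone these were 10, 2 and 0. DESeq2 size factors, DESeq2, limma, both filters, the 24 adult libraries and leaving out mitochondrial RNA genes kept the counts of higher and lower genes within 1.5 times. Of 141 named genes called, 11 kept the call in every setting: Dbp, Per2, Per3, Ciart, Cry2, Tef, Arntl, Tppp3, Snord17, Snora23 and Snord15a.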

Other observations

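Several other genes were called in both ages. All but Sod2, which was named as a member of the NRF2 and antioxidant list, were picked after their values were seen. Leo1, a subunit of the PAF1 elongation complex, had 11.0, 14.3, 17.4 and 17.2 CPM at ZT12, against 24.4, 25.6, 24.3 and 23.8 CPM at ZT0 in adult epidermis (log2 fold change -0.71, SE 0.10), and -0.91 in aged epidermis. Mboat1, a lysophospholipid acyltransferase, was lower by 0.68 in adult and by 0.69 in aged epidermis. Helq, a DNA repair helicase, was higher by 0.57 in adult and 0.50 in aged epidermis, with 11.9 to 16.0 CPM at ZT12 and 9.32 to 9.87 CPM at ZT0 in adult epidermis. Ino80, a chromatin remodeller, was higher by 0.43 in adult and 0.32 in aged epidermis. Sod2, the mitochondrial superoxide dismutase, was higher by 0.34 in adult and 0.30 in aged epidermis, with 71.3 to 80.7 CPM at ZT12 and 56.0 to 62.3 CPM at ZT0 in adult epidermis. Of 18 genes of nucleotide excision repair, whose activity in mouse skin is known to vary with the time of day, 0 were called in adult epidermis by edgeR and the median was -0.04; 2 were higher and 1 lower at an unadjusted p under 0.05, DESeq2 called 1 higher and 1 lower, and limma 1 lower.

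Terc, the RNA of telomerase, was lower at ZT12 in adult epidermis, with 4.87, 7.38, 3.88 and 4.78 CPM at ZT12, against 7.60, 8.53, 7.45 and 10.1 CPM at ZT0 (-0.68, SE 0.14, adjusted p = 0.00134, edgeR). It lost the call with ZT12 replicates 3 and 4 left out (-0.45, adjusted p = 0.123, edgeR) and in the 8-library fit (adjusted p = 0.154, edgeR). In aged epidermis its log2 fold change was 0.23 (adjusted p = 0.463, edgeR).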
